A study of Mus musculus with 32 samples.

Results

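The genes described here are the cadherins and protocadherins, the calcium-dependent adhesion proteins of the cell surface. They were taken from a table of read counts for every annotated gene in mouse embryonic stem cells (ESCs), as all rows whose symbol is Cdh with a number or Pcdh with a number or with the cluster letter a, b or g. This gave 93 of the 51826 genes in the table, with 92 distinct symbols because *Pcdha11* is listed in 2 rows. They comprise 23 cadherins (5 of type I, 13 of type II and 5 others), 12 protocadherins outside the clusters (10 of the delta group and 2 others) and 58 clustered protocadherins (14 alpha, 22 beta and 22 gamma). The gamma genes divide into 12 A-type, 7 B-type and 3 C-type genes.

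Classical cadherins bind the same cadherin on a neighbouring cell through their outer domains, and their tails bind catenins that link the contact to the actin cytoskeleton. E-cadherin, encoded by *Cdh1*, is the main adhesion molecule of ESCs and of the early epiblast, and its exchange for N-cadherin, encoded by *Cdh2*, is known from gastrulation. Delta protocadherins are adhesion proteins with their own restricted patterns in the embryo. Genes of the alpha and gamma clusters are expressed from alternative first exons, in a gene-by-gene choice that is best known in neurons.

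All cells were RGd2 ESCs, which carry a destabilised GFP reporter in the *Rex1* locus, or deletion lines made in them with Cas9 and pairs of guide RNAs. RGd2 cells, with *Etv5*, *Rbpj* and *Tcf3* (*Tcf7l1*) intact, were sampled in 2i (inhibitors of MEK and of GSK3), in 2i at passage 5 (2i-p5), at passage 2 in the GSK3 inhibitor alone (CHp2), and 16 h and 72 h after transfer from 2i to N2B27 basal medium (N16h and N72h). Each RGd2 condition had 2 libraries of the parental line and 1 of a clone derived from it. The study's methods state that lines were routinely kept in the GSK3 inhibitor with leukaemia inhibitory factor (LIF) and moved to 2i shortly before assay. The labels do not say which libraries this covers, so 2i and 2i-p5 may differ in earlier medium as well as in passage. Etv5-KO and Rbpj-KO clones were sampled in 2i and N16h, clones lacking both genes (ER-dKO) at passage 5 in the GSK3 inhibitor, and clones lacking *Etv5*, *Tcf3* and *Rbpj* (ETR-tKO) at passage 5 in N2B27 alone. Each knockout library came from a different clonal line within its condition, and the 3 Rbpj-KO clones and 2 of the 3 Etv5-KO clones were the same in 2i and N16h. There were 3 libraries per condition in 32 libraries of 11 conditions, except that Etv5-KO N16h had 2. No RGd2 library was at passage 5 in either of these media, so genotype and culture changed together for ER-dKO and ETR-tKO and cannot be told apart. ER-dKO and CHp2 cells differed in passage number as well as genotype.

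The libraries held 5986857 to 71439411 gene counts with a median of 29940141, and counts were scaled on added spike-in RNA, which made up 1.0% to 1.54% of the reads. On this scale the median gene moved by -0.37 to 0.27 on the log2 scale in the 12 pairwise comparisons and by 0.22 and 0.47 in the differences of response below, whereas TMM scaling held it between -0.02 and 0.03. Changes are given on the spike-in scale, and calls that TMM scaling ended are named. *Etv5* counts were 1112 to 3373 in the lines labelled as lacking it and 8772 to 16791 in RGd2 cells. *Rbpj* was at 976 to 2797 in Rbpj-KO clones against 3981 to 12766 in their RGd2 controls, and *Tcf7l1* was at 29.1, 120 and 107 in ETR-tKO against 463 to 592 in 2i-p5. *Rbpj* in ETR-tKO was at 1559, 2281 and 2348, below the 2830 to 3385 of 2i-p5 and the 2952 to 3215 of N72h. These are counts over whole genes, which include exons outside the deletions. The ER-dKO library labelled replicate 12 had an *Rbpj* count of 3489, above all of 2i-p5 but below the 3813.8 to 4337.5 of CHp2. Replicates 10 and 11 had 1138 and 1307. Differences of the libraries labelled ER-dKO that passed the test are therefore also given without replicate 12. Among the ETR-tKO libraries, replicate 13 stood apart from replicates 14 and 15 in several members, and its part is named where it matters. The labels name replicates 14 and 15 as lines (Tc1)ERc2 and (Tc1)ERc10, and replicate 13 as (ETc1)Rc53. By the bracketed names, replicates 14 and 15 may share a parent clone that replicate 13 does not, so these libraries may not be independent of each other. The 10 naive ESC markers were all at or above 1 FPKM (counts scaled to exon length and to the gene counts of the library) in every condition except N72h, where 7 were.

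At a mean of at least 1 FPKM in any condition, 11 of the 93 genes were expressed, beside 13752 of the 51826 genes in the table. They were 4 type I cadherins (*Cdh1*, *Cdh2*, *Cdh3* and *Cdh4*), 1 type II cadherin (*Cdh24*), 4 delta protocadherins (*Pcdh1*, *Pcdh8*, *Pcdh18* and *Pcdh19*) and 2 gamma protocadherins (*Pcdhga1* and *Pcdhgc3*). No alpha or beta gene and none of the 5 other cadherins reached that level. The gene just inside was *Pcdh18* at 1.18 FPKM in CHp2, and the gene just outside was *Pcdhga8* at 0.907. Gamma genes share their last exons, and when only unshared exon length was counted, 18 members passed, the 7 additional ones all being gamma A genes. A lower minimum of 0.5 FPKM gave 21 members and a higher one of 2 gave 7. The number per condition was 3 in ER-dKO, 4 in Rbpj-KO 2i, 5 in Etv5-KO N16h, 6 in ETR-tKO, 7 in 2i, 2i-p5, N16h, Etv5-KO 2i and Rbpj-KO N16h, 8 in N72h and 9 in CHp2. At the low end, 16 members had at most 3 counts in every library, and 2 of these had none at all.

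Per length, *Cdh1* was the most abundant member by a wide margin, with mean levels from 54.5 FPKM in ETR-tKO to 167 in N72h. The next highest means of single members were 19.6 FPKM for *Cdh3* in N72h, 7.22 for *Pcdhgc3* in Rbpj-KO 2i, 6.71 for *Pcdh1* in N72h and 3.23 for *Pcdh8* in CHp2. Several expressed members were near absent elsewhere. Mean levels of *Pcdh1* started at 0.0575 FPKM, of *Pcdh8* at 0.0303, of *Pcdh18* at 0.0254 and of *Pcdh19* at 0.115.

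**Figure D1:**
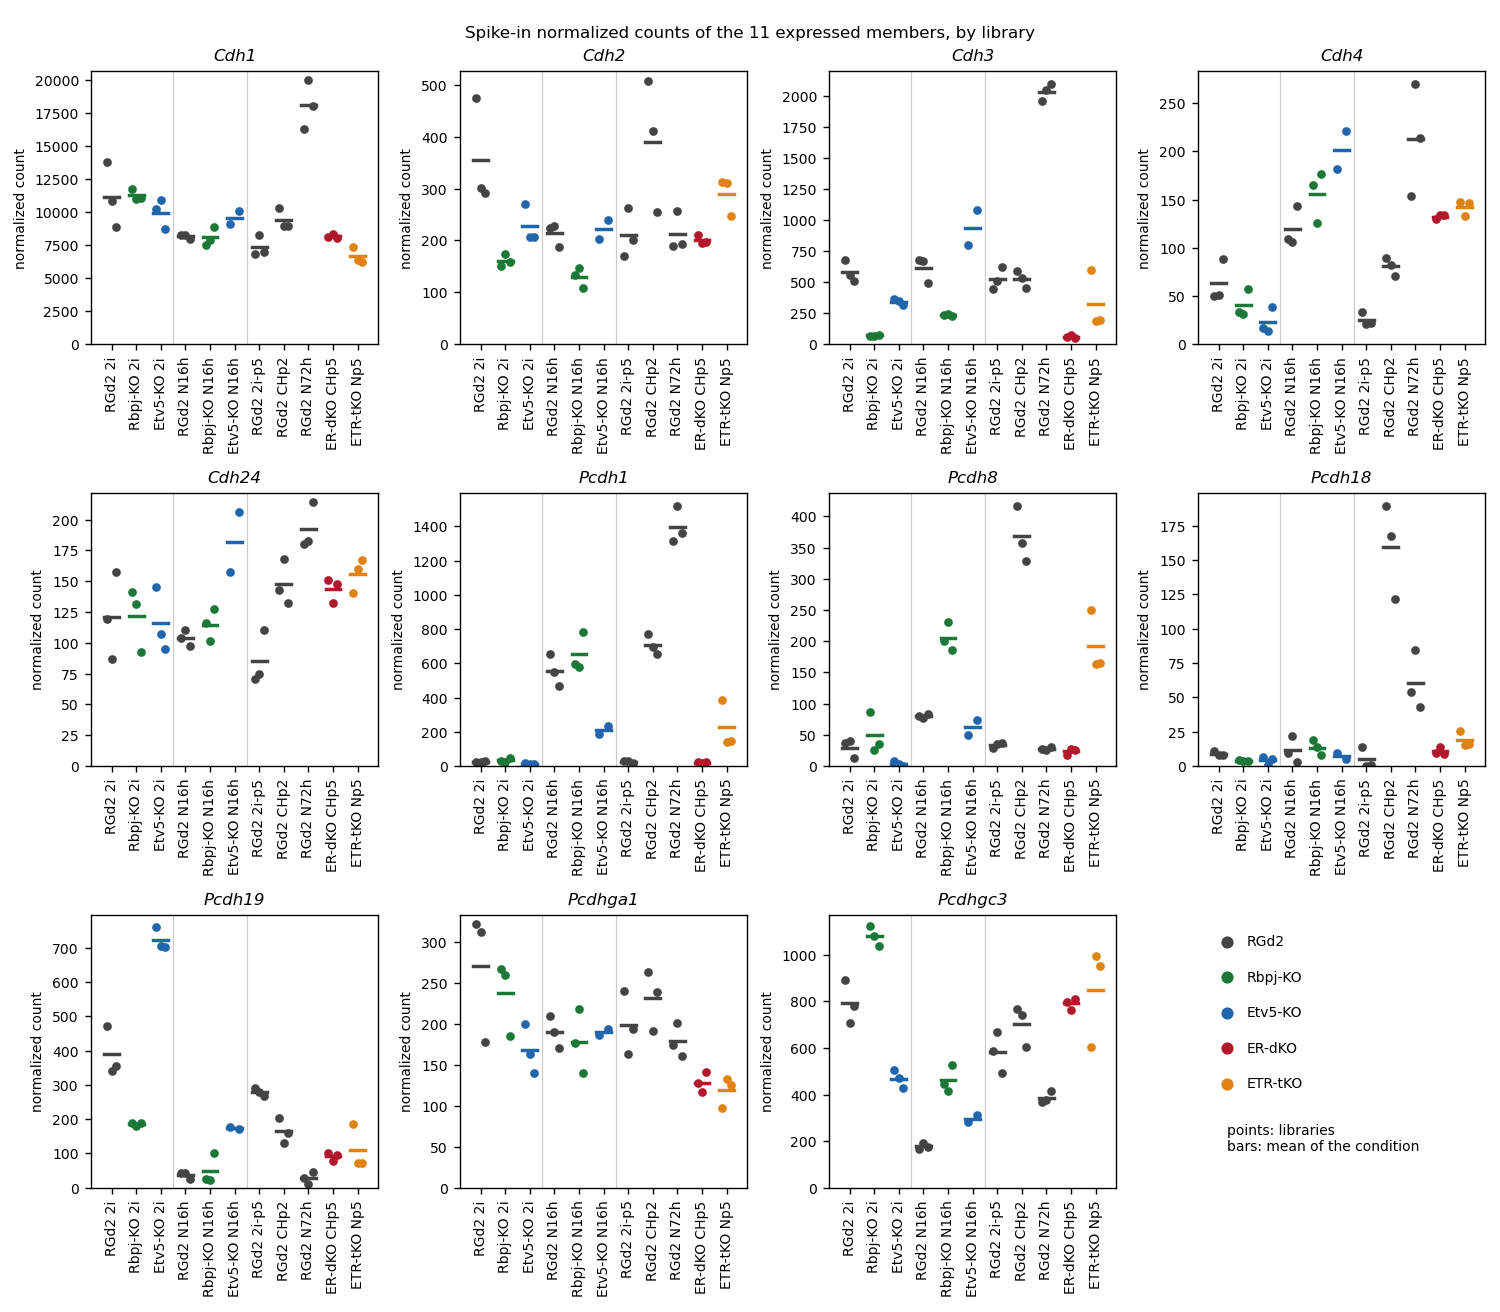
Normalized counts (y axis, a panel per gene) of the 11 expressed members in the 11 conditions (x axis). Each point is a library and each bar the mean of its condition. Cdh1 was highest in N72h, Cdh3 was lowest in ER-dKO and Rbpj-KO 2i, and Pcdh8 and Pcdh18 were highest in CHp2.

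Calls were made with edgeR's quasi-likelihood test, at an adjusted p under 0.05 (Benjamini-Hochberg over 18892 genes, 53 of them members) with a mean of at least 1 FPKM in either condition. Rbpj-KO 2i against RGd2 2i called 1 of 7 members higher, where 5.24% of all genes were, and 3 lower, where 6.12% were. Rbpj-KO N16h against RGd2 N16h called 2 of 8 higher (18.8% of all genes) and 2 lower (3.41%). For Etv5-KO 2i the counts were 1 of 7 higher (6.14%) and 4 lower (27.9%), and for Etv5-KO N16h 2 of 7 higher (29.3%) and 1 lower (3.24%). These shares of all genes depend on the scaling. The percentage of calls that were higher moved from 46.1% to 59.1% with TMM for Rbpj-KO 2i, from 84.6% to 57.8% for Rbpj-KO N16h, from 18.0% to 55.4% for Etv5-KO 2i and from 90.0% to 57.5% for Etv5-KO N16h. Among the members, TMM gave 1 higher and 3 lower, 2 and 2, 1 and 3, and 2 and 1 for the same comparisons.

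In ER-dKO against 2i-p5, 2 of 7 members were higher (33.9% of all genes) and 3 lower (8.43%), and in ETR-tKO against 2i-p5 3 of 8 were higher (37.7%) and 3 lower (9.53%). With TMM these became 1 higher and 3 lower, and 3 higher and 4 lower, while the percentage of all calls that were higher moved from 80.1% to 52.7% and from 79.8% to 47.5%. ER-dKO against CHp2 called 0 of 9 members higher (28.3% of all genes) and 6 lower (21.3%). That 0 was also the number higher at an unadjusted p under 0.05 and by DESeq2. Without replicate 12 the ER-dKO counts were 2 higher and 3 lower against 2i-p5, and 0 and 6 against CHp2. ETR-tKO against N72h called 3 of 9 higher (35.5%) and 5 lower (23.6%), which TMM changed to 2 and 6.

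Within RGd2 cells, N16h against 2i called 1 of 8 members higher (8.63%) and 5 lower (37.4%), N72h against 2i-p5 5 of 9 higher (34.2%) and 2 lower (22.9%), and CHp2 against 2i-p5 6 of 10 higher (28.6%) and 1 lower (13.6%). The percentage of all calls that were higher moved with TMM from 18.8% to 44.5%, from 59.9% to 46.6% and from 67.8% to 43.3%. Cells in 2i-p5 against 2i had 0 of 7 members higher (2.89%), by DESeq2 and at an unadjusted p under 0.05 as well, and 4 lower (49.4%). TMM left 1 of those 4 and moved the higher percentage of all calls from 5.53% to 52.8%. With 7 to 10 members per comparison, a share differs from the background by only a few genes. CHp2, N72h, ER-dKO and ETR-tKO were all set against the same 3 libraries of 2i-p5, and Rbpj-KO and Etv5-KO against the same RGd2 libraries, so the comparisons are not independent of each other.

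The difference between a knockout's change from 2i to N16h and that of RGd2 was called for 2 of 9 members in Rbpj-KO (4.03% of all genes, in either direction) and for 5 of 8 in Etv5-KO (37.3%). TMM left 2 and 1. With the clone as a block, fitted on the 2i and N16h libraries, the counts were 3 and 6. The added calls were *Pcdh19* in Rbpj-KO, at 1.35 (adjusted p = 0.000886) against 1.45 without the block (adjusted p = 0.0943), and *Cdh2* in Etv5-KO, at 0.83 (adjusted p = 0.0156) against 0.71 (adjusted p = 0.0576). Among the 4 members lower in 2i-p5 than in 2i, *Cdh1* fell by 0.60 (SE 0.12, adjusted p = 0.000123) and was the call that TMM left. *Cdh2* had -0.76 (SE 0.20, adjusted p = 0.00284), *Pcdhga1* -0.52 (SE 0.20, adjusted p = 0.0361) and *Pcdhgc3* -0.45 (SE 0.14, adjusted p = 0.0136). Leaving out 2i replicate 31, 32 or 2i-p5 replicate 2 or 3 ended the *Pcdhga1* call (-0.51 to -0.39), and *Cdh2* was -0.48 without 2i replicate 31. Without replicate 31 of 2i the count of calls was 1, and without replicate 3 of 2i-p5 it was 2.

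**Figure D2:**
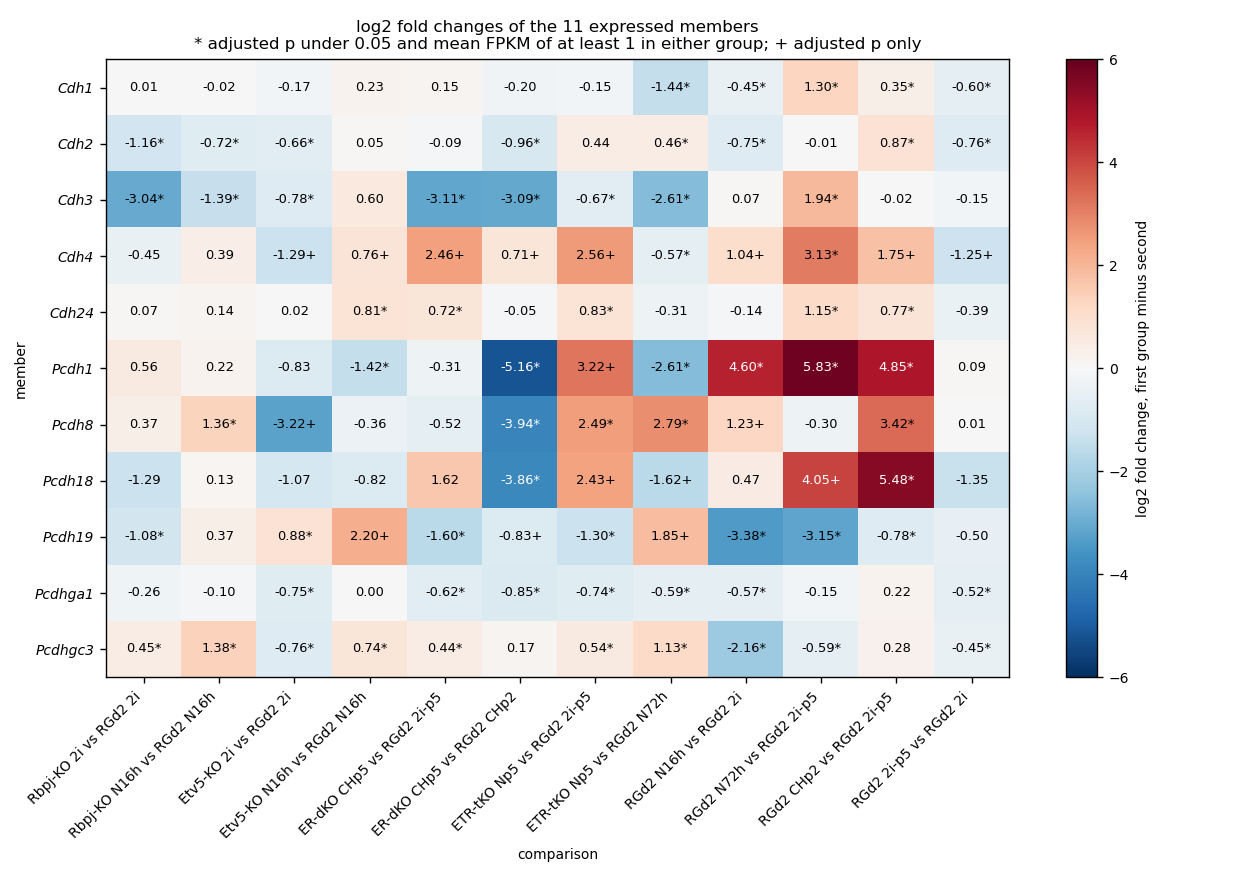
Log2 fold changes (colour) of the 11 expressed members (rows) in the 12 pairwise comparisons (columns). Stars mark an adjusted p under 0.05 with at least 1 FPKM, and plus signs an adjusted p under 0.05 below that level. Cdh3 fell by 3.11 in ER-dKO against 2i-p5 and Pcdh1 rose by 5.83 in N72h.

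*Cdh1* (E-cadherin) lies on mm10 at chr8:106603351-106670246, next to *Cdh3*. Its normalized counts were 6859.9, 8258 and 7013 in 2i-p5 and 16325, 20016 and 18028 in N72h. The N72h libraries all lay above those of 2i-p5, and the level rose by 1.30 on the log2 scale (SE 0.12, adjusted p = 3.21e-12). In bulk RNA, fewer cells of a type and less RNA per cell cannot be told apart, here and below. After 16 h *Cdh1* had not risen, with 8286, 8310.1 and 7994 in N16h against 13840.2, 10881 and 8871 in 2i. It fell by 0.45 (SE 0.12, adjusted p = 0.00187), with no overlap, but the call rested on replicate 31 of 2i, without which the value was -0.27 (adjusted p = 0.0543). A rise of 0.35 in CHp2 over 2i-p5 (SE 0.12, adjusted p = 0.0149) was also unstable, at 0.17 with TMM (adjusted p = 0.0675), 0.30 and 0.32 without replicates 1 and 3 of 2i-p5 and 0.28 without replicate 4 of CHp2.

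*Cdh1* did not pass the test in any single knockout against its RGd2 control in the same medium. The log2 values were 0.01 in Rbpj-KO 2i, -0.02 in Rbpj-KO N16h, -0.17 in Etv5-KO 2i and 0.23 in Etv5-KO N16h, with adjusted p from 0.202 to 0.979, and the 4 signs turned with the scaling or with the library left out. ER-dKO libraries had 8135, 8394 and 8049 and ETR-tKO libraries 7371, 6364 and 6238. Against 2i-p5 neither passed the test (0.15 and -0.15), although TMM called the second at -0.39. Against N72h, the ETR-tKO level was lower by 1.44 (SE 0.12, adjusted p = 1.72e-13), without overlap. ER-dKO against CHp2 gave -0.20 (SE 0.12, adjusted p = 0.161), which TMM called at -0.21. *Cdh1* was thus higher in N72h than in any other condition, and its other levels lay within 54.5 to 90.7 FPKM.

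*Cdh3* (P-cadherin, a classical cadherin of placenta and epithelia) lies at chr8:106510891-106557297 and gave the clearest knockout difference among the cadherins. Its counts were 678, 559 and 509 in RGd2 2i and 69.4, 70.7 and 73.1 in Rbpj-KO 2i. The knockout libraries were far below every control, and *Cdh3* fell by 3.04 on the log2 scale (SE 0.27, adjusted p = 6.43e-11). At N16h it was 679.7, 671 and 495 in RGd2 and 233, 245 and 229.7 in Rbpj-KO, again without overlap, a fall of 1.39 (SE 0.24, adjusted p = 2.09e-05). The ER-dKO libraries had 55.6, 72.6 and 51.8, against 448, 513 and 619 in 2i-p5 and 587, 533 and 450.3 in CHp2. This was lower by 3.11 than 2i-p5 (SE 0.26, adjusted p = 1.31e-12) and by 3.09 than CHp2 (SE 0.26, adjusted p = 5.68e-13). Without the ER-dKO library labelled replicate 12 the values were -3.03 and -3.01.

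In Etv5-KO 2i the *Cdh3* counts were 362, 349.6 and 320.4, below all 3 RGd2 2i libraries, a fall of 0.78 (SE 0.23, adjusted p = 0.00946). That call ended without replicate 31 of RGd2 2i (-0.65, adjusted p = 0.0815) and with TMM (-0.56, adjusted p = 0.0974). Etv5-KO N16h libraries had 796 and 1079.6, both above the RGd2 N16h range, but the log2 value of 0.60 did not pass the test (SE 0.24, adjusted p = 0.0598). Between 2i and N16h the RGd2 level had a log2 value of 0.07 (SE 0.22, adjusted p = 0.848). The change over these 16 h was larger in Rbpj-KO than in RGd2 by 1.65 on the log2 scale (SE 0.36, adjusted p = 0.00441 for the interaction term) and larger in Etv5-KO by 1.38 (SE 0.33, adjusted p = 0.00205), although TMM ended the second (0.93, adjusted p = 0.103). The other Etv5-KO differences of this kind were 0.79 for *Cdh24*, 1.32 for *Pcdh19* and 0.75 for *Pcdhga1*, and each ended with TMM (0.32, 0.86 and 0.31) and without single libraries, at 0.58 to 0.84, 1.14 to 1.34 and 0.63 to 0.78.

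*Cdh3* was highest in N72h, at 1963, 2044 and 2097, a rise of 1.94 over 2i-p5 (SE 0.23, adjusted p = 2.24e-09) with every N72h library above every other library of the series. CHp2 cells gave -0.02 against 2i-p5 (SE 0.23, adjusted p = 0.958). ETR-tKO had 597, 186 and 198, where replicate 13 lay within the 2i-p5 range and the other two below it. The fall against 2i-p5 of 0.67 (SE 0.23, adjusted p = 0.0182) rested on single libraries, being -1.46 without replicate 13 (adjusted p = 2.72e-09) and failing the test without ETR-tKO replicate 14 (-0.40) or 15 (-0.41) or 2i-p5 replicate 3 (-0.54). Against N72h it was lower by 2.61 (SE 0.23, adjusted p = 1.46e-12), and by 3.40 without replicate 13. In FPKM, the order of *Cdh3* means ran from 0.503 in ER-dKO and 0.596 in Rbpj-KO 2i to 19.6 in N72h. The libraries of the lowest 2 conditions overlapped in normalized count.

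*Cdh2* (N-cadherin, the classical cadherin of neural and mesodermal cells) stayed between 0.616 and 1.92 FPKM. It had counts of 474, 301 and 291 in RGd2 2i, 151, 175 and 158 in Rbpj-KO 2i and 269.6, 207 and 207 in Etv5-KO 2i. Both knockouts lay below the controls, by 1.16 in Rbpj-KO (SE 0.20, adjusted p = 6.44e-05) and by 0.66 in Etv5-KO (SE 0.19, adjusted p = 0.00834). Replicate 31 of 2i carried the second, which was -0.38 without it (adjusted p = 0.214). At N16h, *Cdh2* was 224, 229 and 188 in RGd2 and 134, 148 and 109 in Rbpj-KO, a fall of 0.72 (SE 0.20, adjusted p = 0.00951) that was -0.61 without Rbpj-KO replicate 21 (adjusted p = 0.075). In Etv5-KO N16h it was 204 and 239, overlapping the controls (log2 0.05, SE 0.21, adjusted p = 0.904).

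The RGd2 fall of *Cdh2* from 2i to N16h, 0.75 (SE 0.19, adjusted p = 0.00182), was likewise lost without replicate 31 (-0.47, adjusted p = 0.0841). N72h with 189.8, 258 and 193 overlapped 2i-p5 with 169.7, 263 and 200.4 (log2 -0.01, SE 0.20, adjusted p = 0.969), so that the increase of *Cdh1* at 72 h had no counterpart in *Cdh2* that passed the test. In CHp2 the counts were 506, 411 and 254, with the clonal library inside the 2i-p5 range, and *Cdh2* rose by 0.87 (SE 0.20, adjusted p = 0.000556). The summed FPKM of 6 mesoderm markers was 70.4 to 74.1 in CHp2 and 8.47 to 9.64 in 2i-p5, with 2 of the 6 at 1 FPKM or more in both. Its part in the CHp2 values here and below was not tested. ER-dKO, at 209.8, 195 and 197, lay below CHp2 by 0.96 (SE 0.19, adjusted p = 7.62e-05), and by 0.95 without replicate 12. ETR-tKO, at 312, 311 and 248, passed the test against N72h at 0.46 (SE 0.19, adjusted p = 0.0461) with overlapping libraries, and TMM ended this call (0.36, adjusted p = 0.0547), as did leaving out N72h replicate 7 (0.38) or 9 (0.38) or ETR-tKO replicate 13 (0.40) or 14 (0.41).

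*Cdh4* (R-cadherin, a retinal and neural classical cadherin, chr2:179442431-179899373) passed 1 FPKM only in N72h, the other means lying between 0.127 and 0.986. Counts were 33.0, 21.0 and 21.6 in 2i-p5 and 153, 270.1 and 214 in N72h, a rise of 3.13 (SE 0.30, adjusted p = 1.29e-11) without overlap. The summed FPKM of 6 neural markers was 78.1 to 93.5 in N72h, 68.0 to 71.0 in ETR-tKO, 22.1 to 24.6 in ER-dKO and 23.6 to 25.9 in 2i-p5, with 2, 3, 2 and 2 of the 6 at 1 FPKM or more and 1 at 0 in 2i-p5. For 6 fibroblast markers it was 6.03 to 6.79 in N72h and 0.368 to 1.16 in 2i-p5, with 1 and 2 of them at 0, and for 6 endoderm markers 2.93 to 10.1 and 0.452 to 0.802, with none at 0. For 6 formative markers it was 511 to 524 in N72h, 59.3 to 88.7 in ETR-tKO and 30.8 to 34.3 in 2i-p5. In the same order, 6, 3 and 3 of them were at 1 FPKM or more. The neural sum in RGd2 2i was 48.4 to 57.7. The part of these markers in the values of N72h and ETR-tKO, here and below, was not tested. Below the FPKM minimum, several other differences had an adjusted p under 0.05. *Cdh4* was at 130.0, 134 and 134 in ER-dKO (log2 2.46, SE 0.30, adjusted p = 2.06e-08 against 2i-p5, and 2.45 without replicate 12), 147, 133 and 146 in ETR-tKO (log2 2.56, SE 0.30, adjusted p = 5.36e-09) and 89.3, 82.6 and 71.0 in CHp2 (log2 1.75, SE 0.33, adjusted p = 3.37e-05). All 9 of these libraries lay above the 2i-p5 range. In 2i itself the level of 50.2, 51.2 and 88.8 was above 2i-p5, and Etv5-KO 2i had 16.7, 13.5 and 38.5 (log2 -1.29, SE 0.30, adjusted p = 0.00119, and -1.91 without its replicate 27). ETR-tKO lay below N72h (log2 -0.57, SE 0.23, adjusted p = 0.0407), a call lost without any 1 of N72h replicates 8 and 9 and the 3 ETR-tKO libraries, with values of -0.59 to -0.37.

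*Cdh24* (a type II cadherin that binds catenins, chr14:54631992-54641364) was the only member of its class to pass 1 FPKM, and it did so in every condition, at 1.37 to 2.98. Its counts were 70.7, 74.9 and 110.0 in 2i-p5, 180.4, 183 and 214 in N72h and 143, 168 and 133 in CHp2. Both sets lay above 2i-p5, by 1.15 (SE 0.21, adjusted p = 1.28e-05) and 0.77 (SE 0.22, adjusted p = 0.00442). ER-dKO with 151, 132 and 147 and ETR-tKO with 140.2, 160.1 and 167 lay above it too, by 0.72 (SE 0.21, adjusted p = 0.00635; 0.70 without replicate 12) and 0.83 (SE 0.21, adjusted p = 0.0014). ER-dKO overlapped CHp2 (log2 -0.05, SE 0.20, adjusted p = 0.861). In Etv5-KO N16h the counts of 157 and 206 exceeded the 104, 110.2 and 97.2 of RGd2 N16h, a rise of 0.81 (SE 0.21, adjusted p = 0.00387) that was 0.60 without replicate 18 (adjusted p = 0.157).

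Among members below 1 FPKM, 3 were picked after their values had been seen. *Cdh13* (T-cadherin, which is held by a lipid anchor and lacks the catenin-binding tail) was at 163, 147 and 60.6 in RGd2 2i, at 44.2, 30.5 and 32.8 in Rbpj-KO 2i and at 14.6, 11 and 3.78 in Etv5-KO 2i. Neither knockout overlapped the control, with log2 values of -1.90 (adjusted p = 0.000435) and -3.74 (adjusted p = 4.32e-09), and N16h with 40.7, 26.1 and 8.19 lay below 2i by 2.34 (adjusted p = 2.89e-06). ER-dKO had 6.70, 2.99 and 1.62, against 58.9, 36.8 and 32.9 in 2i-p5 (-3.43, adjusted p = 6.47e-07, and -3.17 without replicate 12) and 106, 82.6 and 95.3 in CHp2 (-4.61, adjusted p = 9.91e-11, and -4.36 without replicate 12). The ER-dKO values came from 10, 8 and 2 reads, so these ratios are imprecise.

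*Cdh10* is a type II cadherin and had at most 0.862 FPKM. Its counts were 9.43, 3.94 and 4.11 in 2i-p5, 216, 212 and 186 in N72h and 85.1, 66.3 and 69.1 in CHp2. Both were above 2i-p5 without overlap, by 5.26 (adjusted p = 1.66e-11) and 3.78 (adjusted p = 2.21e-07). *Pcdh11x* had 14, 39 and 6 raw counts in CHp2 and at most 6 in any other library, with 0 in 2i-p5, so no ratio is given.

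Among the 4 expressed delta protocadherins, *Pcdh1* is of the delta-1 group, and *Pcdh8* (known as PAPC, a marker of paraxial mesoderm), *Pcdh18* and *Pcdh19* (linked to an epilepsy of girls) are of the delta-2 group. For 22 members RefSeq (GRCm38.p6) gave a window from 250 bases before to 50 after a start, and for the expressed members it gave those of *Cdh24*, *Pcdh8*, *Pcdh18* and *Pcdh19*. The 3 delta windows are shown because they belong to expressed delta genes that differed between culture media, all on the minus strand, 5′ to 3′. Capitals mark matches on either strand to 4 motifs, RBPJ (TGGGAA), ETS (CGGAAG), TCF (ACAAAG) and E-box (CAGGTG), none of which overlap each other here.
Pcdh8, chr14:79771263-79771562: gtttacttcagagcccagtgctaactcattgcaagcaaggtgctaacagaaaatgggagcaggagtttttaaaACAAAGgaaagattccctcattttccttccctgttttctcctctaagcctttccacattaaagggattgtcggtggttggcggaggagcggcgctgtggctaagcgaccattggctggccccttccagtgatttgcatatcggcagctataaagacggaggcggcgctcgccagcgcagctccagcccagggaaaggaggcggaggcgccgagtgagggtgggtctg
Pcdh18, chr3:49757267-49757566: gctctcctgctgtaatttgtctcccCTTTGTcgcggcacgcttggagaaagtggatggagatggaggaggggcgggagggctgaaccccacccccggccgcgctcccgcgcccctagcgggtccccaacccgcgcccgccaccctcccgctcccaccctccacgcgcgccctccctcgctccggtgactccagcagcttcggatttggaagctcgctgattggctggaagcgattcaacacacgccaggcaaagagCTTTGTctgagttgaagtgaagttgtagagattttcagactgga
Pcdh19, chrX:133688944-133689243: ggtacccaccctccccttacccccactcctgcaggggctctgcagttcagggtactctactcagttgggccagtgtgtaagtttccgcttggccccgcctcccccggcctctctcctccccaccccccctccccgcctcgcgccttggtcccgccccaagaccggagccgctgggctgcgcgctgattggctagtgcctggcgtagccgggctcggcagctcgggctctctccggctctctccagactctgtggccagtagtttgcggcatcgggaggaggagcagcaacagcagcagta
The *Pcdh8* window held 1 TCF match and that of *Pcdh18* held 2 in the reverse orientation, while that of *Pcdh19* held none of the 4. The *Cdh24* window, chr14:54641315-54641614, held 1 RBPJ match. Of all 32851 windows, 25.6% held the RBPJ letters, 16.9% the ETS, 18.7% the TCF and 20.2% the E-box letters, so a match of this kind is common and describes the sequence only.

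*Pcdh8* counts were 28.3, 35.5 and 37.0 in 2i-p5 and 417, 358 and 329 in CHp2. It rose by 3.42 (SE 0.32, adjusted p = 1.29e-11) in CHp2, without overlap, beside the mesoderm markers given above. N72h had 27.0, 25.0 and 30.5, and did not pass the test against 2i-p5 (log2 -0.30, SE 0.36, adjusted p = 0.526). ER-dKO in the same inhibitor had 18.1, 26.9 and 25.9, lower than CHp2 by 3.94 (SE 0.30, adjusted p = 5.17e-14; -3.99 without replicate 12). The mesoderm marker sum was 14.8 to 16.7 FPKM in ER-dKO.

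ETR-tKO had *Pcdh8* counts of 250.1, 163 and 166, all above 2i-p5 and N72h, by 2.49 (SE 0.31, adjusted p = 2.51e-08) and 2.79 (SE 0.31, adjusted p = 4.87e-10). At 16 h, RGd2 had 80.6, 77.3 and 82.9 and Rbpj-KO 200.4, 231 and 186, a rise of 1.36 in the knockout (SE 0.27, adjusted p = 0.000259) without overlap. The mesoderm marker sum was 6.64 to 11.6 FPKM in ETR-tKO, against 8.47 to 9.64 in 2i-p5 and 0.995 to 1.16 in N72h. It was 3.15 to 3.96 in Rbpj-KO N16h and 1.94 to 2.73 in RGd2 N16h. No relation between these sums and *Pcdh8* was tested. In Etv5-KO 2i the counts were 7.66, 2.53 and 0.631 against 36.7, 39.7 and 12.1 in RGd2 2i, both below 1 FPKM (log2 -3.22, SE 0.47, adjusted p = 1.01e-06, and -4.45 without replicate 25 of Etv5-KO 2i).

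*Pcdh1* was at 22.4, 22.2 and 28.3 in 2i and had risen by 4.60 (SE 0.30, adjusted p = 8.89e-16) after 16 h in N2B27, where the counts were 655, 550.0 and 469.7. In N72h they were 1315, 1521 and 1363 and in CHp2 774, 697 and 652, against 30.6, 30.2 and 16.4 in 2i-p5. The rises of 5.83 (SE 0.30, adjusted p = 1.44e-19) and 4.85 (SE 0.30, adjusted p = 2.25e-16) came with no overlap between libraries. *Pcdh1* in Rbpj-KO N16h, at 596, 577 and 785, overlapped RGd2 N16h (log2 0.22, SE 0.21, adjusted p = 0.533). In Etv5-KO N16h the counts of 186 and 232 were below all controls, by 1.42 (SE 0.25, adjusted p = 3.03e-05).

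ER-dKO had *Pcdh1* counts of 21.4, 16.1 and 23.5, overlapping 2i-p5 (log2 -0.31, SE 0.39, adjusted p = 0.579) and lower than CHp2 by 5.16 (SE 0.28, adjusted p = 1.64e-18; -5.27 without replicate 12). ETR-tKO had 384, 143 and 149, of which replicate 13 was the highest. This lay between the 2 RGd2 controls, above 2i-p5 by 3.22 (SE 0.31, adjusted p = 4.78e-11, with a mean of 0.976 FPKM just under the minimum) and below N72h by 2.61 (SE 0.22, adjusted p = 4.83e-13). Without replicate 13 the values were 2.57 and -3.26. The order of *Pcdh1* levels was thus 2i-p5 and ER-dKO, then ETR-tKO, then CHp2, then N72h, and of these neighbours only the first pair overlapped.

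*Pcdh18* reached 1 FPKM only in CHp2, where its counts were 189, 168 and 121. In 2i-p5 they were 14.1, 0 and 1.03, from 6, 0 and 1 reads, so the size of its rise, 5.48 (SE 0.63, adjusted p = 2.59e-09), was poorly fixed and was 7.86 without replicate 1 of 2i-p5, 4.83 without replicate 2 and 4.85 without replicate 3. N72h had 53.9, 84.3 and 42.6, above 2i-p5 at an adjusted p of 1.65e-06 but under 1 FPKM, with log2 values from 3.40 to 6.43 on leaving out 1 library. ER-dKO had 9.38, 13.5 and 8.91, lower than CHp2 by 3.86 (SE 0.48, adjusted p = 1.08e-08; -3.76 without replicate 12). The CHp2 libraries lay above every other library of the series. ETR-tKO with 25.5, 15 and 15.9 differed from 2i-p5 at an adjusted p of 0.00546, which was 0.0554 without replicate 2 of 2i-p5 (1.78) and 0.0731 without replicate 3 (1.80).

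In RGd2 cells moved from 2i to N2B27, *Pcdh19* changed in the opposite sense to *Pcdh1*. Its counts were 472, 341 and 355 in 2i and 42.2, 43.4 and 24.6 in N16h, a fall of 3.38 (SE 0.33, adjusted p = 5.19e-11). In N72h they were 29.0, 10.9 and 44.5 against 289.9, 279 and 267 in 2i-p5, a fall of 3.15 (SE 0.35, adjusted p = 5.65e-10). No library overlapped in either comparison. CHp2 had 202, 130.2 and 161, lower than 2i-p5 by 0.78 (SE 0.31, adjusted p = 0.0442), a call that DESeq2 did not make (adjusted p = 0.136) and that ended without any of the 3 libraries of 2i-p5 (-0.75, -0.77 and -0.81) or CHp2 replicate 5 (-0.62) or 6 (-0.77).

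The single knockouts in 2i differed in direction for *Pcdh19*. Etv5-KO 2i, at 759, 706 and 702, had the highest *Pcdh19* mean of the 11 conditions, 2.72 FPKM, and lay above RGd2 2i by 0.88 (SE 0.28, adjusted p = 0.0154). Rbpj-KO 2i, at 187, 180.0 and 189, lay below it by 1.08 (SE 0.29, adjusted p = 0.0114). Neither set overlapped the control, but DESeq2 made neither call (adjusted p = 0.0825 and 0.0723), the first ended without RGd2 2i replicate 32 (0.78) and the second without RGd2 2i replicate 31 (-0.90) or Rbpj-KO replicate 29 (-1.06). Etv5-KO N16h kept 176 and 170 counts, above RGd2 N16h by 2.20 (SE 0.35, adjusted p = 5.87e-06) though under 1 FPKM. ER-dKO, at 101, 78.9 and 96.4, was lower than 2i-p5 by 1.60 (SE 0.30, adjusted p = 5.13e-05; -1.64 without replicate 12). ETR-tKO, at 185, 72.0 and 73.2, was lower by 1.30 (SE 0.30, adjusted p = 0.00058), and by 1.93 without replicate 13, which was the highest of the 3. Against CHp2, *Pcdh19* in ER-dKO was lower by 0.83, as *Pcdh1* was lower, though under 1 FPKM (-0.86 without replicate 12). DESeq2 did not make that call (adjusted p = 0.0888). It also ended without CHp2 replicate 4 (-0.66) or 6 (-0.83) or ER-dKO replicate 11 (-0.72).

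Gamma genes shared at least 2116 bases of exon, so that 33.2% to 68.5% of the exon length of the gamma A and B genes was their own, and the counting kept only reads with a single match. The levels of these overlapping genes are uncertain, since reads from shared exons have no single gene of origin. Without the FPKM minimum, N16h against 2i called 7 of 53 members higher (8.57% of all genes) and 15 lower (29.0%), N72h against 2i-p5 19 higher (30.5%) and 6 lower (19.6%), and CHp2 against 2i-p5 27 higher (26.7%) and 2 lower (10.7%). ER-dKO called 5 higher (24.9%) and 16 lower (8.92%) against 2i-p5, and 2 higher (21.5%) and 34 lower (23.2%) against CHp2. Without replicate 12 these were 4 and 14, and 2 and 32. Of the lower members, 13 of the 16 and 15 of the 34 were gamma genes, which made up 22 of the 53 members tested (41.5%).

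*Pcdhgc3*, a gamma C gene with its own first exon at the end of the cluster, was the most abundant of them. Its counts were 891, 706 and 779 in 2i and 164, 194 and 173 in N16h, where it fell by 2.16 (SE 0.15, adjusted p = 5.22e-15). In Rbpj-KO it was 1126, 1082 and 1038 in 2i, above all controls, and 444, 417 and 526 in N16h. At 16 h the Rbpj-KO level was higher by 1.38 (SE 0.15, adjusted p = 3.46e-09). In 2i it was higher by 0.45 (SE 0.14, adjusted p = 0.0342), a call that ended without RGd2 2i replicate 32 (0.36) or any of the Rbpj-KO replicates 28, 29 and 30 (0.42, 0.45 and 0.48). Etv5-KO turned direction between media, with 504, 471 and 429 in 2i, lower by 0.76 (SE 0.14, adjusted p = 7.41e-05), and 281 and 313 in N16h, higher by 0.74 (SE 0.16, adjusted p = 0.000643). The change from 2i to N16h therefore differed from that of RGd2, by 0.93 in Rbpj-KO (SE 0.21, adjusted p = 0.0052) and by 1.50 in Etv5-KO (SE 0.22, adjusted p = 1.82e-06).

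In N72h *Pcdhgc3* was at 366, 376 and 414 against 587, 671 and 491 in 2i-p5, a fall of 0.59 (SE 0.15, adjusted p = 0.000822). ER-dKO had 798, 765 and 812, higher than 2i-p5 by 0.44 (SE 0.14, adjusted p = 0.0133; 0.43 without replicate 12), but TMM (0.25, adjusted p = 0.107) and the removal of 2i-p5 replicate 3 (0.33) ended that call. ETR-tKO had 603, 996 and 954, higher than 2i-p5 by 0.54 (SE 0.14, adjusted p = 0.00221), with replicate 13 within the 2i-p5 range, and higher than N72h by 1.13 (SE 0.14, adjusted p = 1.14e-08) without overlap.

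*Pcdhga1*, the first gamma A gene in the cluster, ranged only from 0.820 to 1.76 FPKM. It was at 127, 117 and 141 in ER-dKO, below 240.4, 163 and 194 in 2i-p5 and 264, 192 and 239 in CHp2. The falls were 0.62 (SE 0.20, adjusted p = 0.0133), lost without 2i-p5 replicate 1 (-0.49) or ER-dKO replicate 11 (-0.55), and 0.85 (SE 0.20, adjusted p = 0.00053). Without replicate 12 they were -0.69 and -0.92. ETR-tKO, at 97.1, 133 and 126, was lower than 2i-p5 by 0.74 (SE 0.20, adjusted p = 0.00346) and than N72h by 0.59 (SE 0.20, adjusted p = 0.0125), the second being lost without N72h replicate 8 (-0.50) or ETR-tKO replicate 13 (-0.45). Falls with overlapping libraries were seen in Etv5-KO 2i, by 0.75 (SE 0.19, adjusted p = 0.00309), and in N16h against 2i, by 0.57 (SE 0.19, adjusted p = 0.0176), the latter lost with TMM (-0.36, adjusted p = 0.102) and without 2i replicate 31 (-0.45) or 32 (-0.47) or N16h replicate 24 (-0.50).

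The gamma A and B genes as a whole were low in ER-dKO while the gamma C genes were not. Summed over the 12 gamma A genes, normalized counts were 316, 301 and 283 in ER-dKO, 768, 568 and 549.9 in 2i-p5 and 919, 721 and 824 in CHp2. For the 7 gamma B genes they were 40.9, 68.1 and 34.8 in ER-dKO, 144, 171 and 132 in 2i-p5 and 287, 239 and 248 in CHp2. For the 3 gamma C genes they were 878, 825 and 876 in ER-dKO, 624, 709.9 and 548 in 2i-p5 and 847, 794 and 661 in CHp2. The A and B sums of all ER-dKO libraries, replicate 12 included, lay below those of both controls, and the C sums did not. Gene by gene, all 19 gamma A and B genes had a log2 value under 0 in both comparisons. These genes lie in the same cluster and share their last exons, so they are not independent of each other. Against 2i-p5, 13 of the 19 were lower, with a median over the 19 of -1.46, and against CHp2 15 were, with a median of -2.42. The medians over all genes were 0.20 and 0.02.

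The number of gamma A and B genes called against 2i-p5 was 11 without ER-dKO replicate 12, 10 without 2i-p5 replicate 1, 16 with TMM and 15 with DESeq2, and against CHp2 it was 14 without replicate 12, 15 to 17 without any other library, 16 with TMM and 16 with DESeq2. The called genes with counts above the floor ran from -2.59 (*Pcdhgb7*) to -0.62 against 2i-p5 and from -3.56 (*Pcdhgb6*, which was -4.92 without ER-dKO replicate 11 and -3.16 without replicate 12) to -0.85 against CHp2. *Pcdhga9* had at most 3 counts in each ER-dKO library and was at least 8.28-fold lower than 2i-p5 and 22.1-fold lower than CHp2, with a floor of 3 counts per library. Gamma C genes had log2 values of 0.44 to 0.57 against 2i-p5, with only *Pcdhgc3* passing the test, and of 0.09 to 0.17 against CHp2, where none passed. Most of the A and B genes were below 1 FPKM and counts of the gamma B genes together were 43 to 182 in the ER-dKO libraries, which limits the precision of single ratios. Medians this low were not seen in ETR-tKO, where the gamma A and B genes had -0.05 and 0.12 against 2i-p5, beside 0.27 over all genes. Without the FPKM minimum 2 of these genes were called lower and 1 higher, and no share of all genes was taken under this rule.

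**Figure D3:**
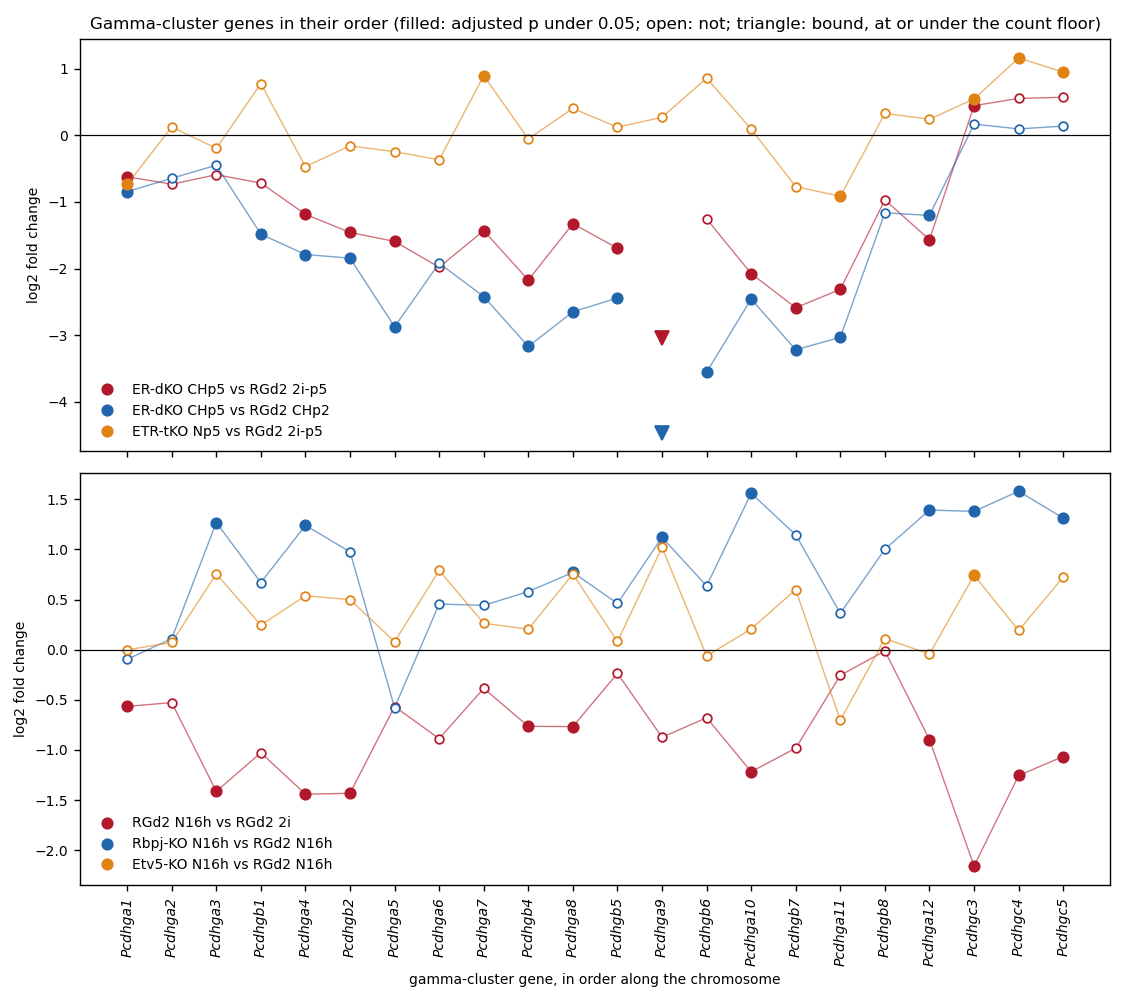
Log2 fold changes (y axis) of the 22 gamma protocadherins in their order along the cluster (x axis). The upper panel shows ER-dKO against 2i-p5 and CHp2 and ETR-tKO against 2i-p5, the lower panel N16h against 2i and both single knockouts against RGd2 at N16h. Filled points have an adjusted p under 0.05, and the triangle for Pcdhga9 marks a bound. The ER-dKO points of the 19 A and B genes all lie below 0 and those of the 3 C genes above it.

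The single knockouts were compared without the FPKM minimum as well. Etv5-KO N16h called 6 of 53 members higher and 2 lower, but no share of all genes was taken for it under this rule. Rbpj-KO 2i called 4 of 53 members higher (4.1% of all genes) and 4 lower (5.9%), Etv5-KO 2i 2 higher (5.38%) and 7 lower (22.8%), and Rbpj-KO N16h 11 higher (14.5%) and 2 lower (3.38%). In Rbpj-KO 2i the 4 higher members were 2 gamma A genes (*Pcdhga10* and *Pcdhga12*) and 2 gamma C genes (*Pcdhgc3* and *Pcdhgc4*). In Etv5-KO 2i *Pcdhga1* and *Pcdhgc3* were among the 7 lower. The medians of the A, B and C genes were 0.31, 0.14 and 0.47 in Rbpj-KO 2i and -0.07, -0.03 and -0.75 in Etv5-KO 2i. RGd2 N16h had 6 gamma A, 2 gamma B and 3 gamma C genes lower than 2i. Rbpj-KO N16h had 6 gamma A and 3 gamma C genes higher than RGd2 N16h and none lower, and the 7 gamma B genes had log2 values of 0.46 to 1.15 that did not pass the test. Of these, *Pcdhgc4* was higher by 1.58 (adjusted p = 0.00334), *Pcdhgc5* by 1.31 (adjusted p = 0.00318) and *Pcdhga10* by 1.56 (adjusted p = 0.0029), chosen after their values had been seen. Gamma C sums were 183, 225 and 209 in RGd2 N16h and 519.8, 507 and 587 in Rbpj-KO N16h, with no overlap.

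Alpha and beta genes were close to silent and were highest in CHp2. The summed normalized counts of the 14 alpha genes were 76.6, 75.1 and 67.3 in CHp2 and 33.2, 25.0 and 38.4 in N72h, against 0, 9.20 and 4.11 in 2i-p5 and 0.670, 0.374 and 2.43 in ER-dKO. Those of the 22 beta genes were 70.2, 95.1 and 54.2 in CHp2, 21.8, 28.1 and 35.3 in N72h, 4.71, 6.57 and 15.4 in 2i-p5 and 6.03, 2.99 and 4.05 in ER-dKO. The CHp2 sums did not overlap any other condition in either cluster, and they rested on 36 to 60 alpha counts and 29 to 76 beta counts per library. The highest alpha sum outside CHp2 and N72h was 14.3, in ETR-tKO replicate 15.

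**Figure D4:**
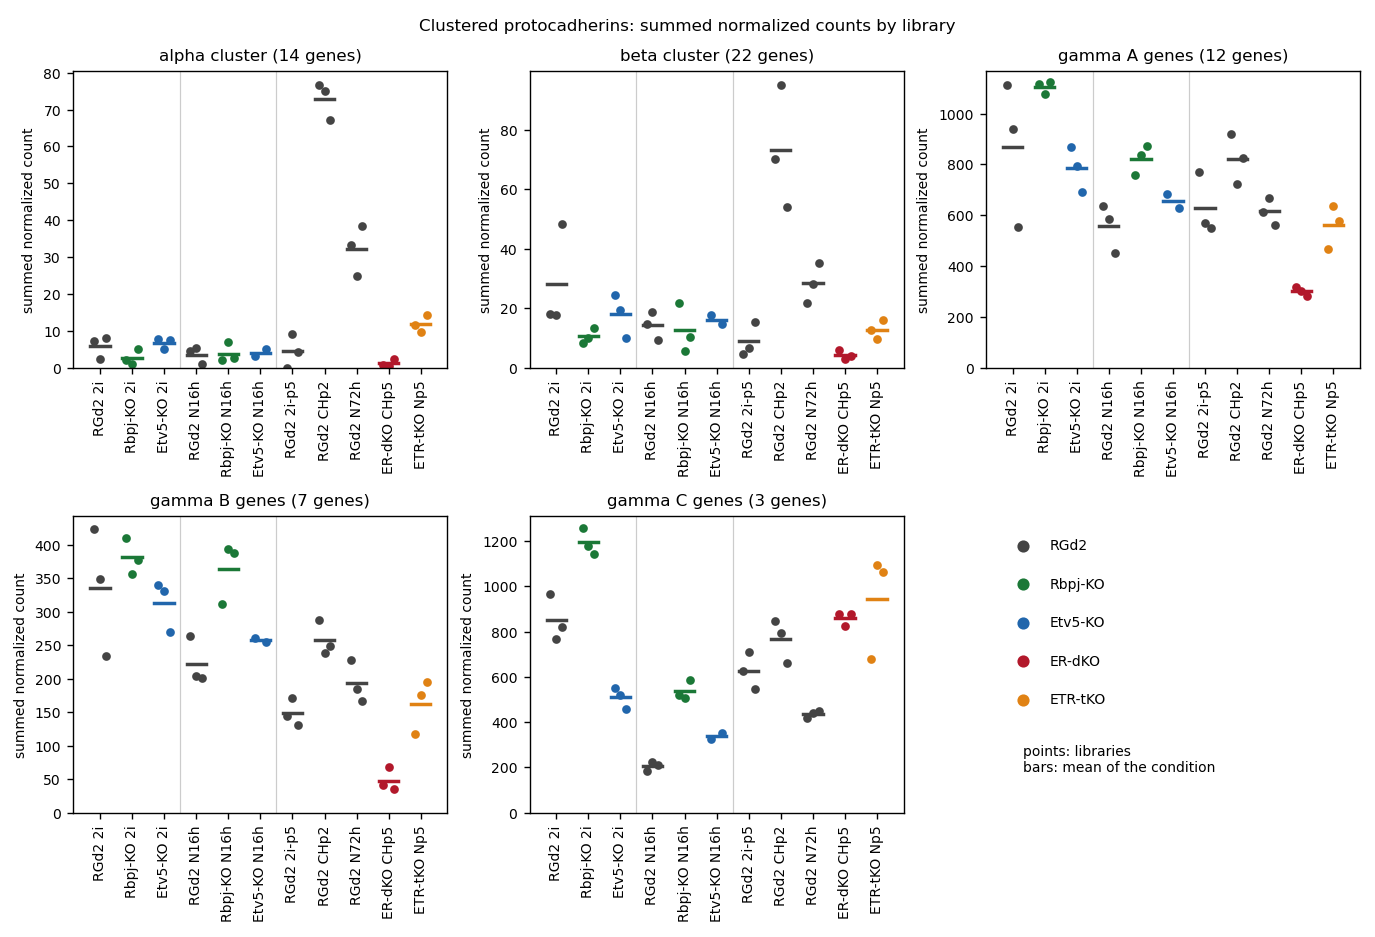
Summed normalized counts (y axis) of the alpha and beta clusters and of the gamma A, B and C genes in the 11 conditions (x axis). Points are libraries and bars their means. The alpha and beta sums are highest in CHp2, and the gamma A and B sums are lowest in ER-dKO.

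The partners of the cadherins were counted by the same rule, with the same background. For the lists here and in the next paragraph, the shares of all genes were 34.2% higher and 22.9% lower in N72h. They were 28.6% and 13.6% in CHp2, 5.24% and 6.12% in Rbpj-KO 2i, and 28.3% and 21.3% in ER-dKO against CHp2. The first list held catenins and plakophilins, which tie cadherin tails to the cytoskeleton, and also other genes such as *Vcl* (vinculin). It is called catenins below. Of its genes, 12 passed the FPKM minimum in N72h and 7 were higher than 2i-p5 and 2 lower, led by *Pkp3* (2.52) and *Vcl* (1.30) and by *Ctnnd2* (-1.21). In CHp2 8 of 12 were higher and 1 lower, which TMM changed to 6 and 4. Of the desmosomal cadherins and desmoplakin, 2 of 3 rose in N72h and 3 of 3 in CHp2, with *Dsc2* at 4.07 and 3.45. Other members of the cadherin superfamily were higher in 6 of 8 and lower in 1 of 8 in N72h, led by *Fat3* (6.64), and higher in 4 of 7 and lower in 1 of 7 in CHp2. In Rbpj-KO 2i the counts were 1 of 11 catenins higher and 0 lower, 0 of 2 desmosomal cadherins in either direction, and 3 of 5 of the other superfamily higher and 2 lower. ER-dKO against CHp2 had 3 catenins higher and 4 lower, and 2 of 3 desmosomal cadherins lower, *Dsc2* by 3.30. Without replicate 12 these were 2 and 2 catenins and 2 desmosomal cadherins, with *Dsc2* at -3.32.

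Repressors of *Cdh1* did not move as a group. In N72h 2 of 5 were higher and 2 lower, with *Snai3* (3.95) and *Twist1* (1.73) up and *Zeb1* (-3.36) down, and CHp2 gave 2 higher and 1 lower, or 2 and 3 with TMM, with *Snai3* at 3.14, *Twist1* at 2.54 and *Zeb1* at -2.20. ER-dKO against CHp2 had *Zeb1* higher by 2.67 and *Snai3* lower by 5.28, or 2.69 and -4.97 without replicate 12. Of 13 regulators of the protocadherin clusters, a list that holds the DNA methyltransferases, cohesin and CTCF, 6 were higher and 2 lower in N72h, or 5 and 4 with TMM. *Dnmt3b*, a de novo DNA methyltransferase, was higher in N72h by 4.47 and in CHp2 by 2.39, and lower in Rbpj-KO 2i by 1.53 and in ER-dKO against CHp2 by 2.46 (-2.50 without replicate 12). In ER-dKO against 2i-p5, 7 of the 13 were higher (33.9% of all genes) and none lower (8.43%), and 5 were higher with TMM (22.3% of all genes) or without replicate 12. No relation between these genes and the protocadherins was tested.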

How the data were processed

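Total RNA depleted of ribosomal RNA was sequenced as directional libraries from mouse ESCs. The deposited values are raw counts per gene and per added spike-in. Per the study's methods and processing notes, the authors made them with Trim Galore for trimming, TopHat2 for alignment to mm10, and featureCounts on a Gencode annotation, keeping unique matches on the gene's strand. Tool versions are not given in the sources used here. All 32 libraries were used and no column was left unmapped. Gene IDs were given symbols from a supplied table, and 193 IDs without one held 0.0259% of the counts.

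Counts were scaled by size factors from the 52 of 92 spike-ins above 0 in every library, and FPKM was computed here from the counts, the gene counts of the library and the exon length. Genes were tested with edgeR 4.0.16 (quasi-likelihood F-test, R 4.3.3) over all 11 conditions with Benjamini-Hochberg adjustment over 18892 genes. The script was tested on simulated data. Alternatives were TMM, DESeq2 1.42.0, no FPKM minimum, only the libraries compared, the clonal line as a block and each library left out. The use of unshared exon length was added after seeing the data. Sums were planned for the alpha, beta and gamma clusters, and the split of the gamma genes into A, B and C was not part of that plan. Replicates were compared by chi-square per gene over 31 pairs (lowest 3.39), and none was a duplicate. Separate clones were sampled for the knockouts, but ETR-tKO replicates 14 and 15 carry the same bracketed name, Tc1, and may share a parent clone. Nothing in the labels says that the 2 parental RGd2 libraries of a condition came from separate cultures, so p-values measure the spread between these libraries. The study's methods name RGd2 N16h as the condition short of a library, whereas the labels give it 3 and Etv5-KO N16h 2, and the labels were followed. Clones sampled in both 2i and N16h were paired by the line named in the labels. For each clone, deviations were taken from the mean of the clones sampled in both media. Between a clone's 2 libraries they had a correlation of 0.0376 to 0.124 over 17790 genes for the 3 Rbpj-KO clones. For the 2 Etv5-KO clones it was 0.0217, which is a single value because their deviations mirror each other. The clone block was added after seeing the data.

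Members named are those with a mean of at least 1 FPKM in any condition. Catenins, desmosomal genes, other cadherin superfamily genes, repressors of Cdh1 and regulators of the protocadherin clusters were counted as lists, with up to 3 called genes named. The members and lists were chosen with earlier results of these data known. The floor of 3 counts per library covers counting error only, whereas SEs come from the edgeR fit and include the spread between libraries.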

Additional observations from a re-analysis of the deposited data

Results flagged for a closer look

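The change from 2i to N16h differed between a knockout and RGd2 cells, by the interaction term of the edgeR model, in 7 cases among the members. In Rbpj-KO the difference was 1.65 on the log2 scale for *Cdh3* and 0.93 for *Pcdhgc3*. In Etv5-KO it was 1.38 for *Cdh3*, 0.79 for *Cdh24*, 0.75 for *Pcdhga1*, 1.50 for *Pcdhgc3* and 1.32 for *Pcdh19*. All 7 values are positive, beside medians over all genes of 0.22 and 0.47, and both knockouts were set against the same RGd2 libraries. With TMM both Rbpj-KO differences and only *Pcdhgc3* of the Etv5-KO differences were called. With the clone as a block all 7 were called, at 1.65, 0.93, 1.39, 0.98, 0.85, 1.56 and 1.36 in the same order. With 2 or 3 libraries per condition, no test for a single library standing apart was made.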

How the results depend on the processing

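Without the FPKM minimum the members called were 8 in Rbpj-KO 2i, 13 in Rbpj-KO N16h, 9 in Etv5-KO 2i, 8 in Etv5-KO N16h, 21 and 20 in ER-dKO and ETR-tKO against 2i-p5, 36 in ER-dKO against CHp2, 28 in ETR-tKO against N72h, 22 in N16h, 25 in N72h, 29 in CHp2, 15 in 2i-p5 against 2i and 12 for the Etv5-KO difference in response, because more genes entered the count. The shares of all genes under this rule are given above, by direction, for the single knockouts in 2i, Rbpj-KO N16h, ER-dKO, N16h, N72h and CHp2. No such share was taken for Etv5-KO N16h, ETR-tKO, 2i-p5 against 2i or the Etv5-KO difference in response. Their counts cannot be set against a shift of all genes. Fitting only the libraries compared gave 5 in Etv5-KO N16h and 2 in 2i-p5 against 2i, and TMM gave 1 in 2i-p5 against 2i and 1 for the Etv5-KO difference in response. The cause of these changes was not tested. Members expressed were 21 at 0.5 FPKM, 7 at 2 FPKM and 18 on unshared exon length.

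Leaving out each library in turn gave 2 to 4 calls in Rbpj-KO 2i, 3 to 4 in Rbpj-KO N16h, 3 to 6 in Etv5-KO 2i, 2 to 5 in Etv5-KO N16h, 4 to 5 in ER-dKO against 2i-p5, 5 to 7 in ETR-tKO against 2i-p5, 3 to 6 in N16h, 7 in N72h, 5 to 6 in CHp2, 6 in ER-dKO against CHp2, 5 to 7 in ETR-tKO against N72h, 1 to 4 in 2i-p5 against 2i, and 2 to 3 and 2 to 6 for the Rbpj-KO and Etv5-KO differences in response. A lone remaining library was assumed to vary like the others. The low or high ends named by library were Rbpj-KO 2i without replicate 29 (2), Etv5-KO 2i and N16h against 2i without RGd2 2i replicate 31 (3 each), Etv5-KO N16h without replicate 17 (5) and ETR-tKO against N72h without replicate 13 (5).

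The sign turned only for *Cdh1*, which had no call in those comparisons. With TMM it was 0.0394 in Etv5-KO 2i, -0.0043 in Etv5-KO N16h and -0.0473 in ER-dKO against 2i-p5. Without 1 library it ran from -0.13 to 0.19 in Rbpj-KO 2i, from -0.087 to 0.0339 in Rbpj-KO N16h and from -0.31 to 0.0127 in Etv5-KO 2i. Of the 110 values of single genes, DESeq2 kept direction and side of the threshold for 105 and TMM for 91. With the clonal line as replicate block, fitted on the RGd2 libraries, members called were 6 in N16h, 7 in N72h, 7 in CHp2 and 4 in 2i-p5 against 2i. In these 4 comparisons the members called with the FPKM minimum were those called in the fit of all 32 libraries without the block. The RGd2 libraries alone without the block gave 6, 7, 6 and 3. *Cdh1* in CHp2 (adjusted p = 0.0504) and *Pcdhga1* in 2i-p5 against 2i (adjusted p = 0.051) were then lost. With the clone as replicate block on the 17 libraries of 2i and N16h, the Rbpj-KO and Etv5-KO differences in response had 3 and 6 calls, which kept the 2 and 5 made without it, added *Pcdh19* and *Cdh2*, and changed no other call. The same 17 libraries without the clone term gave 2 and 3, with *Cdh24* (0.80, adjusted p = 0.0759) and *Pcdhga1* (0.75, adjusted p = 0.0684) in Etv5-KO lost. Depth limits the genes below 1 FPKM, the gamma B genes and *Pcdh18* most.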
